A study of Mus musculus with 10 samples.

Results

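Cd69, 5 genes of regulators of G protein signalling (Rgs1, Rgs2, Rgs10, Rgs18 and Rgs19), 3 sphingosine 1-phosphate receptor genes (S1pr1, S1pr2 and S1pr4) and the transcription factor gene Klf2 were followed in mouse HSPCs, the stem and progenitor cells of the marrow from which blood is renewed. These are 10 of the 55573 genes in the count files, matched by gene symbol, and all 10 passed the filter on low counts that 12874 genes passed. Cd69 and Rgs1 were already known to differ between the groups of these libraries when the 10 genes were put together. Their values between the groups are therefore given as a description, and no p-value is given for any of the 10. HSPCs came from bone marrow of C57BL/6 mice, 16 weeks of age, at 6 weeks after 500 cGy of total body irradiation, which both groups received. RNA was sequenced from 5 libraries of mice treated with epidermal growth factor (EGF) under the skin and from 5 libraries of mice treated with saline by the same route. The sources used here do not give the sorting gate, the schedule of EGF or whether each library is from a separate mouse, so the spread between libraries may be technical.

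Lymphocytes leave tissues along a gradient of sphingosine 1-phosphate (S1P), which is high in blood and lymph and low in tissue. The receptor S1PR1 reads this gradient, and KLF2 drives its transcription in T cells. CD69, a C-type lectin that appears early after activation, binds S1PR1 and takes it off the cell surface, so that activated lymphocytes stay in place. Chemokine receptors and S1P receptors signal through G proteins, and RGS proteins end that signal by speeding the hydrolysis of GTP on the alpha subunit. HSPCs use the same receptors to move between marrow and blood.

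Total counts lay between 6805106 and 8370820 per library. EGF replicate 5 stood apart, with 12731 genes detected against 18734 to 20046 in the other 9 libraries, so many values are also given without it. All 15 stem and progenitor markers were measured, including Kit and Flt3, and their summed level was 3478 to 4125 CPM (read counts scaled to a common library size) in EGF libraries, against 3127 to 3501 CPM in saline libraries; Procr alone among them had 0 counts in EGF replicate 5. The highest EGF sum was that of EGF replicate 5, where Myb had 11118 counts, against 6580 to 7986 in the other EGF libraries. Markers of T and NK cells, in which Cd69, S1pr1 and Klf2 are best known, summed to 21.2 to 95.4 CPM with EGF and 61.2 to 92.9 CPM with saline over 19 genes, of which 8 were tested. Nkg7 had more counts than any other of the 19 in every library except EGF replicate 5, where Cd4 had the most (51 counts). Cd3e had 0 to 18 counts per library and Trac 0 to 9, so the sum says little about T cells alone. B cell markers summed to 18.9 to 38.9 CPM with EGF and 24.0 to 39.0 CPM with saline over 12 genes. All 7 mast cell and basophil markers had a log2 fold change above 0 (sum 487 to 748 CPM in EGF libraries, 406 to 650 CPM in saline libraries). Gata2, which is also among the 15 stem and progenitor markers, had more counts than any other of these 7 in every library. Of the 5 monocyte and macrophage markers tested none lay above 0 (sum 173 to 188 CPM in EGF libraries, 124 to 342 CPM in saline libraries), and of 10 plasma cell markers 1 did (746 to 3448 CPM in EGF libraries, 2575 to 5493 CPM in saline libraries). None of the marker genes was called by edgeR, and their part in the results below was not tested. In bulk RNA, a larger share of cells of a type and more RNA per cell cannot be told apart.

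Rgs2, Rgs1 and Rgs18 lie in a row on the minus strand of chromosome 1, within 776098 bases (GRCm38). Rgs2 runs from 143999338 to 144004161, Rgs1 from 144242296 to 144249242 and Rgs18 from 144752683 to 144775435. Between them lie Rgs13 and Rgs21, which had 0 counts in all libraries, so the neighbours of the same family differed between well sampled and unsampled. No exon of another annotated gene overlaps an exon of any of the 10 genes, while intronic and unannotated reads were not examined. CD69 mRNA is known from human cells to carry AU-rich motifs in its 3′ untranslated region that shorten its life. The letters ATTTA, read on the transcript strand with overlapping copies counted, occurred 2 times in that region of Cd69 (2.14 per kb), 10 times in Rgs1 (3.33 per kb), 5 times in Rgs2 (2.14 per kb) and 5 times in Rgs18 (4.43 per kb). The median over 11164 genes tested was 1.35 per kb, and 71.6% of these genes held at least 1 copy. The S1P receptor genes lay below that median, with 0.73 per kb in S1pr1, 0.78 per kb in S1pr2 and 0 in S1pr4. Rgs19 had 1.18 per kb, Klf2 had 1.36 per kb and Rgs10 had 0. The longer motif TTATTTATT, which contains ATTTA, was present in Rgs1 and in 8.27% of the genes, and in none of the other 9. That region is 3006 bases long in Rgs1, against a median of 1225 bases over the genes, and the share was not matched for length. The windows below, of 30 bases each, show these letters in Cd69 and in the 3 neighbours on chromosome 1, with ATTTA in capitals for Cd69, Rgs2 and Rgs18 and TTATTTATT in capitals for Rgs1. They come from GENCODE transcripts of GRCm38, are written 5′ to 3′ on the minus strand, and lie at chr6:129267933-129267962 for Cd69, chr1:144243182-144243211 for Rgs1, chr1:144001352-144001381 for Rgs2 and chr1:144753443-144753472 for Rgs18.
Cd69: ctctagagttactATTTAttgccgaatgac
Rgs1: ttaaatgtttaTTATTTATTacttgaagat
Rgs2: atgttgttggagcATTTAaaatcaataggt
Rgs18: agcaaagcaatgtATTTAgataactgtata
A match of letters is a description and was not tested as a working site.

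Cd69 (chromosome 6, 129267325 to 129275436, minus strand) was higher with EGF. It was at 185, 213, 223, 233 and 213 CPM in EGF replicates 1 to 5, and at 117, 137, 122, 104 and 118 CPM in saline replicates 1 to 5. The groups did not overlap; the lowest EGF library was at 185 CPM and the highest saline library at 137 CPM. The means were 213 ± 18.0 CPM with EGF against 120 ± 11.9 CPM with saline (SD, n = 5 each), a log2 fold change of 0.83 (SE 0.09), or 1.78-fold. EGF replicate 5 was at 0.997 times the mean of the other EGF libraries, and without it the log2 fold change was again 0.83 (SE 0.08). The coefficient of variation of Cd69 was 8.45% with EGF and 9.92% with saline. By edgeR's test across all genes, with Benjamini-Hochberg adjustment, Cd69 was the 1 gene of the 10 called higher, and 0 of the 10 were called lower. The background was 0.00777% of the 12874 genes called higher, which is Cd69 itself, and nothing is read from this count because Cd69 was chosen on it. The groups of all 5 libraries also failed to overlap, with EGF higher, for 1.62% of the genes tested. The call was lost with library size scaling, with the replicate number as a block, and when any 1 of EGF replicates 2, 3 and 4 or saline replicates 1, 3, 4 and 5 was left out, while the log2 fold change stayed between 0.78 and 0.88 with any 1 library left out.

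**Figure D1:**
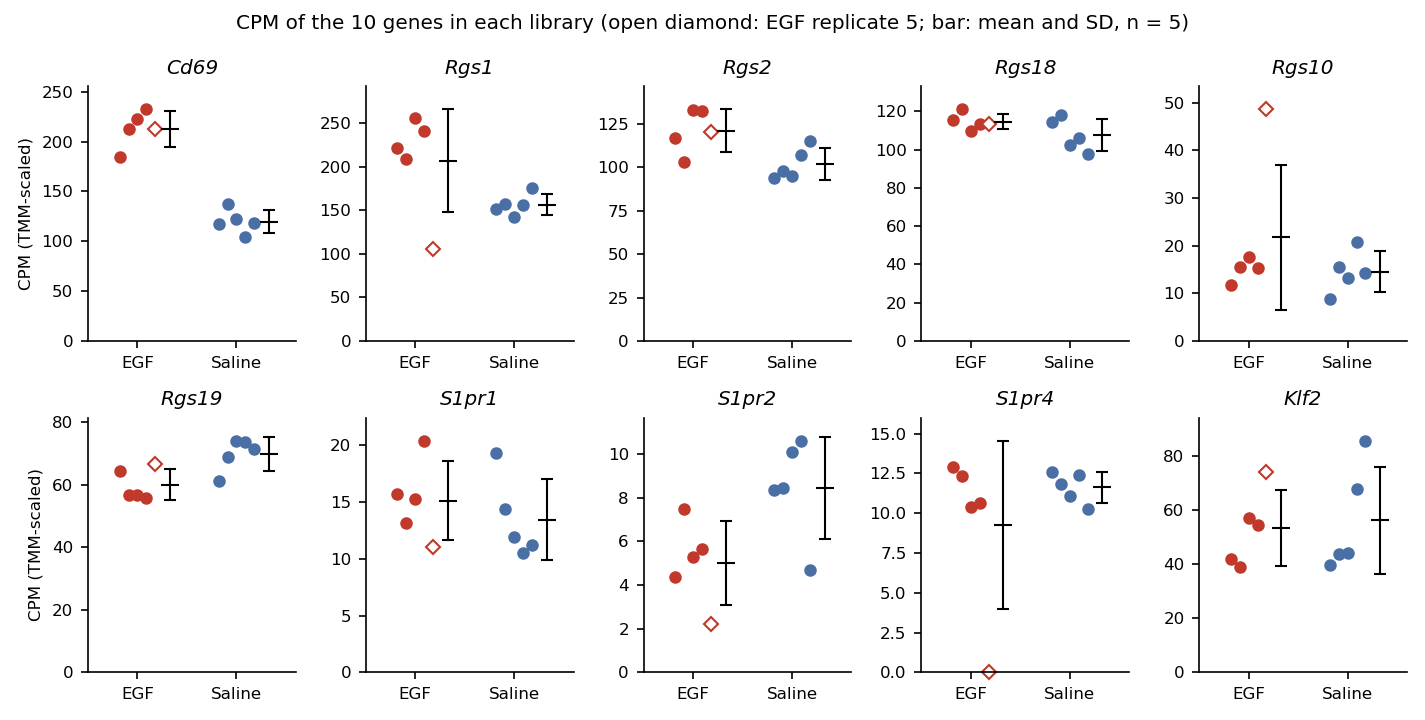
CPM (vertical axis, from 0, scaled by TMM) of each of the 10 genes in the EGF libraries (red, left) and the saline libraries (blue, right) of each panel. Points are libraries in replicate order, the open diamond is EGF replicate 5, and the bar is the mean with SD (n = 5). The EGF points lie above all saline points for Cd69, and the open diamond stands away from the other EGF points for Rgs1, Rgs10 and S1pr4.

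Rgs1, a regulator first studied in activated B cells that dampens their response to chemokines, was at 222, 209, 257, 241 and 106 CPM in EGF replicates 1 to 5. In saline replicates 1 to 5 it was at 151, 158, 143, 156 and 176 CPM. EGF replicates 1 to 4 lay above every saline library and EGF replicate 5 lay below every one. Over all libraries it averaged 207 ± 59.2 CPM in EGF libraries and 157 ± 12.2 CPM in saline libraries (SD, 5 libraries each), a log2 fold change of 0.40 (SE 0.19). Without EGF replicate 5 the EGF mean was 232 ± 20.9 CPM (SD, n = 4) against the same saline mean, and the log2 fold change was 0.57 (SE 0.08). In that fit edgeR called 2 of the 10 genes higher, Cd69 and Rgs1, beside 0.0305% of the 13104 genes then tested. The groups then did not overlap for these 2 genes, beside 2.66% of all genes higher and 2.36% lower. Nothing is read from either count, because both genes were known to differ between the groups when the 10 were put together. The library left out was also that in which Rgs1 lay below every saline library.

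Rgs2, which acts with preference on the Gq alpha subunit, was at 117, 103, 133, 133 and 121 CPM in EGF replicates 1 to 5 and at 94.0, 97.7, 95.2, 107 and 116 CPM in saline replicates 1 to 5. Of the 5 EGF libraries, 4 lay above all saline libraries, and EGF replicate 2 lay within their range. The log2 fold change was 0.25 (SE 0.09), also without EGF replicate 5. Rgs18, known from megakaryocytes and platelets, was at 116, 121, 110, 113 and 113 CPM with EGF and at 115, 118, 102, 106 and 97.9 CPM with saline. The groups overlapped and the log2 fold change was 0.09 (SE 0.08), or 0.05 without saline replicate 5. The log2 fold changes of these neighbours on chromosome 1 were thus 0.25 for Rgs2, 0.40 for Rgs1 and 0.09 for Rgs18, in the order of their positions.

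Rgs19 (chromosome 2, 181688419 to 181693977, minus strand), which binds the Gi alpha 3 subunit, was at 64.3, 56.9, 56.6, 55.9 and 66.5 CPM in EGF replicates 1 to 5, and at 61.2, 68.9, 74.2, 73.8 and 71.4 CPM in saline replicates 1 to 5. EGF replicates 2, 3 and 4 lay below all saline libraries, and EGF replicates 1 and 5 lay inside the saline range. The log2 fold change was -0.22 (SE 0.09), and it was -0.26 (SE 0.08) without EGF replicate 5. Rgs10 (chromosome 7, 128373621 to 128418758, minus strand), a small RGS protein of platelets and macrophages, was at 11.7, 15.4, 17.7, 15.3 and 48.6 CPM with EGF and at 8.76, 15.6, 13.2, 20.7 and 14.3 CPM with saline. EGF replicates 1 to 4 lay inside the saline range, and EGF replicate 5 was at 3.23 times their mean. For Rgs10 the log2 fold change was 0.58 (SE 0.39) with that library and 0.05 (SE 0.21) without it.

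The S1P receptors were sampled far less than Cd69 or the RGS genes of chromosome 1, with 0 to 173 counts per library. S1pr1 (chromosome 3, 115710433 to 115715072, minus strand), the egress receptor that CD69 antagonizes, was at 15.7, 13.1, 15.3, 20.4 and 11.1 CPM in EGF replicates 1 to 5. In saline replicates 1 to 5 it was at 19.3, 14.4, 11.9, 10.5 and 11.2 CPM. The ranges overlapped almost entirely, and the log2 fold change was 0.17 (SE 0.24), or 0.26 (SE 0.20) without EGF replicate 5. With any 1 library left out it lay between 0.04, without EGF replicate 4, and 0.33, without saline replicate 1; it was 0.09 without saline replicate 4 and 0.11 without saline replicate 5. With EGF replicates 3 and 4 both left out it was -0.02. The ratio of Cd69 to S1pr1, in CPM of the same library, was 11.4 to 19.2 with EGF and 6.07 to 10.5 with saline. These ratios did not overlap between the groups, and they carry the difference in Cd69 on which the genes were chosen.

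S1pr2 (chromosome 9, 20962361 to 20976781, minus strand), which signals through G12 and G13 and confines B cells to germinal centres, was at 4.39, 7.47, 5.28, 5.66 and 2.24 CPM in EGF replicates 1 to 5. In saline replicates 1 to 5 it was at 8.38, 8.43, 10.1, 10.6 and 4.67 CPM. All EGF libraries lay below saline replicates 1 to 4, and saline replicate 5 lay among the EGF libraries. The log2 fold change was -0.75 (SE 0.36), and -0.57 (SE 0.25) without EGF replicate 5. S1pr4 (chromosome 10, 81497747 to 81500132, minus strand), a receptor of blood cells, was at 12.9, 12.4, 10.4 and 10.6 CPM in EGF replicates 1 to 4 and was not detected in EGF replicate 5, where 0 counts allow up to 0.42 CPM (3 counts). In saline replicates 1 to 5 it was at 12.6, 11.8, 11.0, 12.4 and 10.3 CPM. For S1pr4 the log2 fold change was -0.32 (SE 0.70) with all libraries and -0.005 (SE 0.14) without EGF replicate 5, so its difference rested on that library.

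Klf2 (chromosome 8, 72319033 to 72321656, plus strand), which drives S1pr1 in T cells and holds them quiescent, was at 42.0, 39.2, 57.2, 54.6 and 74.1 CPM in EGF replicates 1 to 5. In saline replicates 1 to 5 it was at 39.7, 44.0, 44.3, 67.7 and 85.7 CPM. Both groups spanned nearly the same range, and the log2 fold change was -0.08 (SE 0.24). It ran from -0.22 without EGF replicate 5 to 0.13 without saline replicate 5, so its sign depended on the libraries included. The 3 libraries highest in Klf2 were also the 3 highest in neutrophil markers, whose summed level was 51.5, 98.5, 9.84, 10.6 and 551 CPM in EGF replicates 1 to 5 and 16.1, 46.0, 43.0, 393 and 132 CPM in saline replicates 1 to 5, and their part in the spread of Klf2 was not tested. Within saline, the standard deviation of log2 CPM was 0.48 for Klf2, larger than in 98.4% of the 4221 genes within 2-fold of its level. For S1pr4 it was 0.12, larger than in 9.65% of the 3586 genes at its level, and for Cd69 it was 0.14, larger than in 74.9% of 2634 genes.

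**Figure D2:**
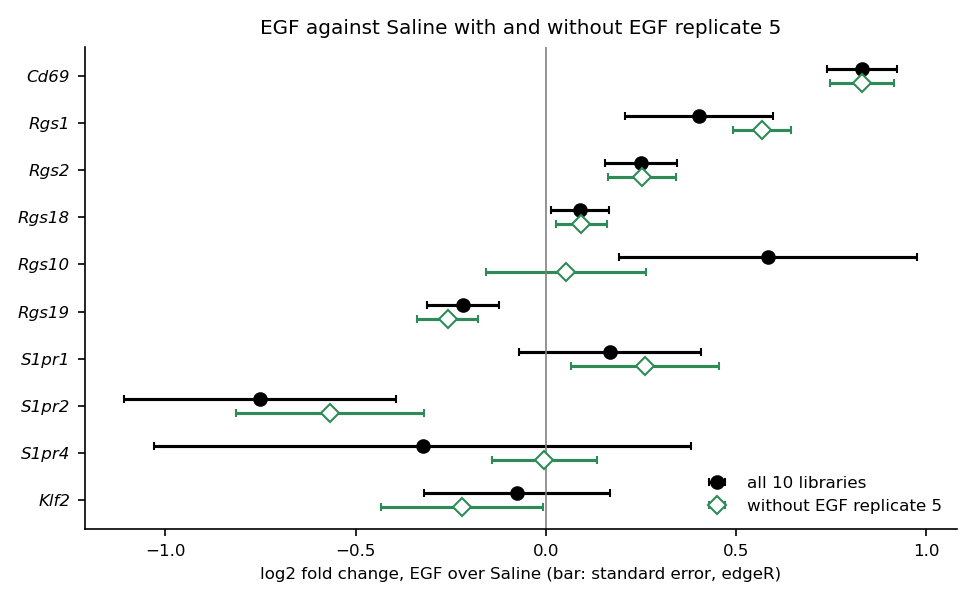
Log2 fold change of EGF over saline (horizontal axis) with its standard error from edgeR, for all 10 libraries (black circles) and without EGF replicate 5 (open green diamonds). Cd69, Rgs2 and Rgs18 stay in place without that library, while Rgs10 moves to 0.05 and S1pr4 to -0.005.

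Over the 10 genes the log2 fold change was above 0 for 6 and below 0 for 4, with a median of 0.13, beside a median of -0.01 and 48.5% above 0 over all genes tested. Without EGF replicate 5 the counts were again 6 and 4, with a median of 0.07, beside a median of -0.0002 over all genes. EGF replicate 5 lay within 2% of the mean of the other EGF libraries for Cd69, Rgs2 and Rgs18. It was at 0.457 times that mean for Rgs1, 0.686 times for S1pr1, 0.393 times for S1pr2, 1.14 times for Rgs19 and 1.54 times for Klf2. The same library had the lowest summed T and NK cell markers, 21.2 CPM, and the highest neutrophil markers, 551 CPM. The part of these markers in the values of Rgs1, Rgs10 and S1pr4 was not tested.

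Levels between genes can be compared only per length. With all annotated exons of a gene as its length, Rgs18 had the highest level, 56.5 ± 2.04 CPM per kb with EGF and 53.1 ± 4.12 CPM per kb with saline (SD, n = 5 each). In saline libraries Rgs19 (31.3 CPM per kb), Klf2 (30.5 CPM per kb) and Rgs2 (28.1 CPM per kb) came next, and neighbours in that order overlapped. Rgs1 (22.6 CPM per kb) and Cd69 (18.4 CPM per kb) followed and overlapped each other, and then Rgs10 at 8.47 CPM per kb. The receptors were lowest, with S1pr4 at 4.87 and S1pr1 at 4.42 CPM per kb, which overlapped, and S1pr2 at 1.06 CPM per kb, below both in all saline libraries. With EGF, Cd69 stood at 32.7 ± 2.76 CPM per kb, the third level of the 10. It overlapped Rgs2 (33.4 CPM per kb), Rgs1 (29.8 CPM per kb), Klf2 (28.9 CPM per kb) and Rgs19 (26.9 CPM per kb). Rgs10 (12.7 CPM per kb) reached the lowest Cd69 value in EGF replicate 5 only. The place of Cd69 depended on the length used, as its annotated exons, retained introns included, cover 6509 bases and its longest coding transcript 1687 bases. Per kb of its longest coding transcript, Cd69 was the highest of the 10 in both groups, at 126 ± 10.7 CPM per kb with EGF and 71.1 ± 7.05 CPM per kb with saline. The saline order of other genes depended on the length too. By longest coding transcript, Klf2 was number 6 instead of number 3. Rgs1, at 40.8 CPM per kb, then stood above Rgs2, at 33.7 CPM per kb, and overlapped it.

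**Figure D3:**
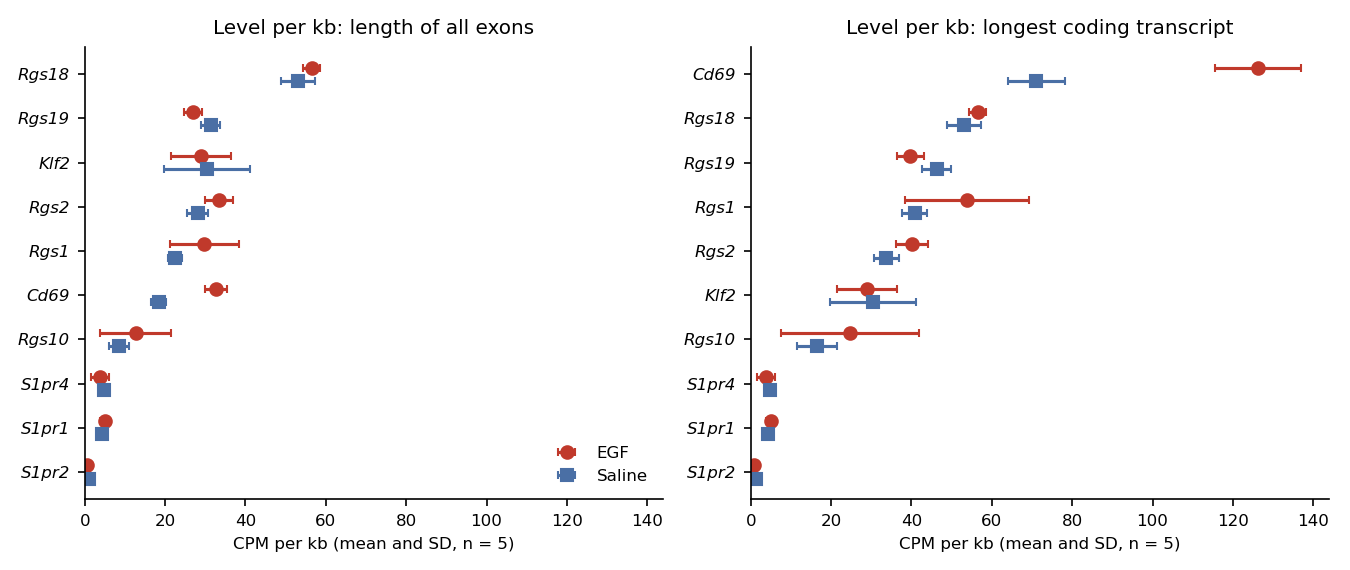
Level of the 10 genes in CPM per kb (horizontal axis, from 0; mean and SD, n = 5) in EGF libraries (red circles) and saline libraries (blue squares), ordered by the saline level, with the length of all exons on the left and that of the longest coding transcript on the right. Cd69 moves to the top on the right, at 126 CPM per kb with EGF, and the S1P receptor genes are lowest in both panels.

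Likeness of pattern was measured by Pearson's r of log2 CPM over the 10 libraries, among 6724 named protein-coding genes with a mean of at least 20 CPM, and it carries no test because the genes were picked by it. The genes most like Cd69 were Pitpnc1, of phosphatidylinositol transfer (r = 0.94, Spearman's coefficient 0.88), the phospholipid flippase gene Atp8a1 (0.92, Spearman's 0.89), Ptprc, which encodes the leukocyte antigen CD45 (0.92, Spearman's 0.89), Pml of nuclear bodies (0.91, Spearman's 0.75) and the cation channel gene Pkd2 (0.91, Spearman's 0.90). All 5 had a higher mean with EGF, as in Pitpnc1, at 137 ± 7.90 CPM with EGF against 116 ± 6.44 CPM with saline (SD, n = 5 each). Picking by r over both groups favours such genes, because Cd69 itself differed between the groups, so nothing is read from it. None of the 5 was called by edgeR. After each group's mean was taken away, r with Cd69 was 0.88 for Pitpnc1, 0.70 for Ptprc, 0.65 for Atp8a1, 0.60 for Pkd2 and 0.09 for Pml. All 5 were less like Cd69 within groups, and Pml was close to Cd69 across all libraries only. A lower r within groups is also favoured by picking on r over all libraries. Among the genes most like Rgs1 were Ldb1, a cofactor of LIM domain proteins (r = 0.96), Inpp5d, which encodes the phosphatase SHIP1 (0.96), and the GTPase activator gene Arhgap4 (0.95). The r of these 3 genes was 0.92 to 0.95 over the 9 libraries without EGF replicate 5. Between Cd69 and Rgs1 themselves r was 0.46 over 10 libraries and 0.92 without EGF replicate 5. Both values carry the difference between the groups on which these genes were chosen, and nothing is read from them. Within the groups r was 0.07, and this was taken with all 10 libraries only.

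Around the 10 genes, 183 other genes in 8 lists of the same pathways were examined, of which 125 passed the filter on low counts. None passed edgeR's test across all genes in either direction, where the smallest adjusted p was 0.552 (0 higher, 0 lower; DESeq2 and limma-voom also called 0 of them). Without adjustment, p fell under 0.05 for 10 higher and 5 lower genes, 12.0% of the 125, beside 6.14% of all genes higher, 2.73% lower and 8.87% in either direction. EGF and saline libraries were fully separated for 3 higher and 4 lower genes, beside 1.62% of all genes higher and 1.65% lower. The lists were chosen with earlier results of these data known, so nothing is read from these shares. List medians are set beside the median of -0.01 over all genes.

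Of 19 other RGS proteins, 8 were tested and 6 had 0 counts in all libraries; 2 had a log2 fold change above 0 (list median -0.14). Axin1, a scaffold of Wnt signalling with an RGS domain, was at 84.0 CPM with EGF against 92.7 CPM with saline. Rgs3 was at 11.4 CPM with EGF against 12.7 CPM with saline, and Rgs11 at 1.20 CPM with EGF against 1.57 CPM with saline. Without EGF replicate 5 the list median was 0.04 and 5 of 8 lay above 0. Of the 23 other genes of S1P receptors, metabolism and transport, 18 were tested and 7 lay above 0 (median -0.11, and 0.01 without EGF replicate 5). Sphk1, a kinase that makes S1P, averaged 9.70 ± 8.85 CPM in EGF libraries and 3.71 ± 1.76 CPM in saline libraries (SD, 5 libraries each), a log2 fold change of 1.38 (SE 0.56), and 0.64 (SE 0.34) without EGF replicate 5. The acid ceramidase gene Asah1, whose enzyme releases sphingosine, was at 31.7 CPM with EGF against 40.3 CPM with saline (log2 fold change -0.35, SE 0.13). Spns1, a lysosomal transporter, was at 8.73 CPM with EGF against 12.4 CPM with saline, each EGF library being below the whole saline range, and its log2 fold change was -0.51 (SE 0.27), or -0.34 (SE 0.15) without EGF replicate 5.

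Among 20 chemokine receptors 10 were tested and 4 lay above 0 (median -0.03), against 5 with a median of 0.03 without EGF replicate 5. Cxcr4, which holds HSPCs in marrow by binding CXCL12, averaged 50.9 ± 5.78 CPM in EGF libraries and 65.4 ± 9.83 CPM in saline libraries (SD, 5 libraries each), a log2 fold change of -0.36 (SE 0.13; adjusted p = 0.552 by edgeR). Cx3cr1, the fractalkine receptor, had a log2 fold change of 0.81 (SE 0.55) with all libraries and -0.06 (SE 0.28) without EGF replicate 5, and Ccrl2, an atypical chemokine receptor, had 0.24 (SE 0.23), which was 0.13 without EGF replicate 5 and 0.14 without saline replicate 5. Among 32 genes of G proteins, receptor kinases and arrestins, on which RGS proteins and chemokine receptors act, 28 were tested and 13 lay above 0 (median -0.03), against 15 with a median of 0.06 without EGF replicate 5. Grk5, a kinase that desensitizes receptors, averaged 16.0 ± 6.08 CPM in EGF libraries and 8.91 ± 0.885 CPM in saline libraries (SD, 5 libraries each), a log2 fold change of 0.84 (SE 0.27), each EGF library being above the whole saline range. Gnai3, the Gi subunit that Rgs19 binds, averaged 119 ± 20.3 CPM in EGF libraries and 150 ± 4.79 CPM in saline libraries (SD, 5 libraries each), a log2 fold change of -0.33 (SE 0.12). Gng5, a gamma subunit, had a log2 fold change of -0.40 (SE 0.15). For Gnai3 and Gng5 each EGF library lay below the whole saline range. Without EGF replicate 5 the log2 fold change was 0.63 (SE 0.19) for Grk5, -0.23 (SE 0.06) for Gnai3 and -0.31 (SE 0.10) for Gng5.

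All 23 genes of the other KLF factors and of the pathway above and below Klf2 were tested, and 14 lay above 0 (median 0.09), against 19 with a median of 0.13 without EGF replicate 5. Mef2c, of a factor family that acts on the Klf2 promoter, averaged 332 ± 37.1 CPM in EGF libraries and 268 ± 23.1 CPM in saline libraries (SD, 5 libraries each), a log2 fold change of 0.31 (SE 0.09; adjusted p = 0.552 by edgeR). Klf10 had a log2 fold change of 0.54 (SE 0.27), which was 0.17 without EGF replicate 5, and Klf6 had 0.25 (SE 0.14). Of 20 tissue residency genes of lymphocytes 14 were tested and 12 lay above 0 (median 0.25), against 10 with a median of 0.10 without EGF replicate 5. The nuclear receptor gene Nr4a3 averaged 22.7 ± 9.99 CPM in EGF libraries and 9.62 ± 4.37 CPM in saline libraries (SD, 5 libraries each), a log2 fold change of 1.24 (SE 0.39). Bhlhe40, a repressor induced by activation, had 0.91 (SE 0.33), or 0.44 (SE 0.15) without EGF replicate 5, and Itga4, the integrin alpha 4 chain, had 0.24 (SE 0.10), or 0.15 (SE 0.07) without EGF replicate 5. With all libraries, each EGF library lay above the whole saline range for Bhlhe40 and Itga4.

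C-type lectin genes of the natural killer gene complex, the family and locus of Cd69 on chromosome 6, gave 11 tested of 28, of which 5 lay above 0 (median -0.06); without EGF replicate 5, 7 of 12 tested lay above 0 and the median was 0.21. Their values with the smallest p were -0.72 (SE 0.49) for Olr1, 0.41 (SE 0.31) for Klrb1f and -0.40 (SE 0.33) for Clec12a, on the log2 scale. Leaving out EGF replicate 3 took Olr1 to -1.23, and Clec12a was at -0.61 without saline replicate 1 and -0.12 without saline replicate 4. Of 19 antigens and co-signals that lymphocytes induce early along with Cd69, 14 were tested and 8 lay above 0 (median 0.03), against 12 of 16 with a median of 0.11 without EGF replicate 5. The NF-kB regulators Nfkbid and Nfkbiz had log2 fold changes of 0.56 (SE 0.17) and 0.43 (SE 0.14). The feedback inhibitor of cytokine signals Socs3 averaged 14.7 ± 6.41 CPM in EGF libraries and 28.7 ± 6.87 CPM in saline libraries (SD, 5 libraries each), a log2 fold change of -0.96 (SE 0.37), each EGF library being below the whole saline range. For Socs3 it was -0.72 (SE 0.16) without EGF replicate 5. None of these genes was called, with an edgeR adjusted p of at least 0.552 each.

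**Figure D4:**
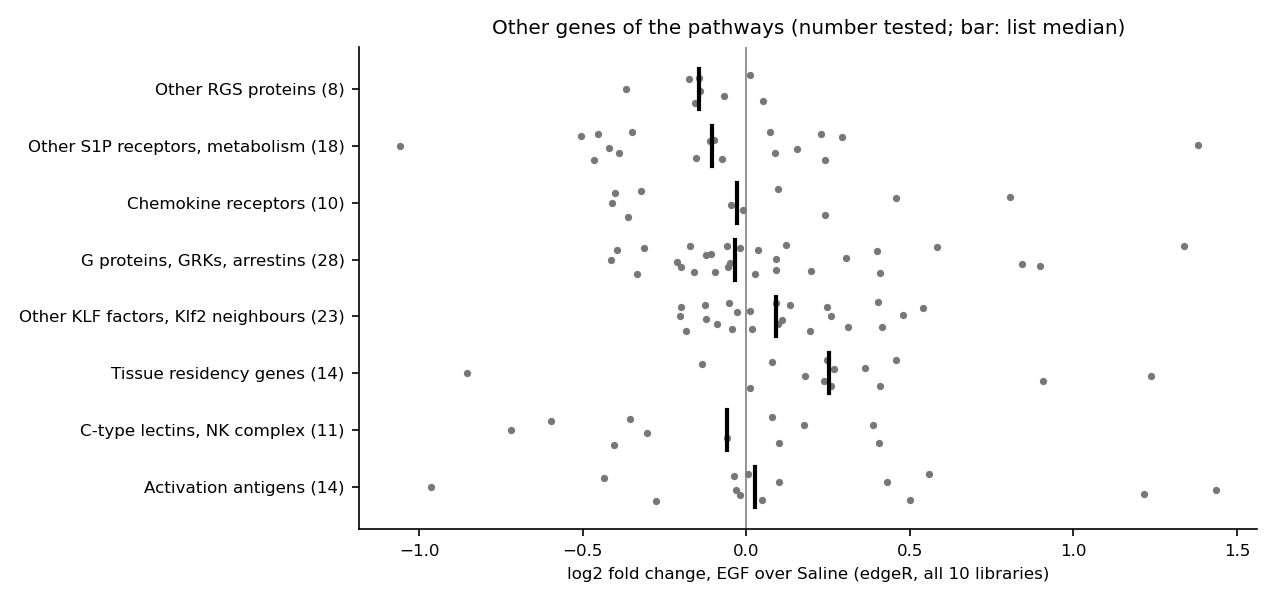
Log2 fold change of EGF over saline (horizontal axis, edgeR, all 10 libraries) of the tested genes of each of the 8 pathway lists, 1 point per gene, with the number tested in parentheses and the list median as a bar. The medians lie between -0.14 for the other RGS proteins and 0.25 for the tissue residency genes, and no point was called.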

How the data were processed

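The authors deposited 1 file per library of raw read counts by Ensembl gene, without normalization. RNA came from a Qiagen RNeasy Micro kit and the libraries from a Clontech kit with rRNA depletion, per the labels' protocols. The submitters' processing notes name bcl2fastq 2.17, STAR, GRCm38 and mm10; for the counting tool and strand setting, the value is not given in the sources used here, so reads of antisense genes could not be told apart. GENCODE release 21 of the mouse (GRCm38) held 55480 of the 55573 identifiers; 27 symbols turned into dates or times by a spreadsheet were replaced from it.

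EGF was compared with saline over all 10 libraries by edgeR 4.0.16 (R 4.3.3): TMM scaling, filterByExpr (minimum count 10), quasi-likelihood F tests and Benjamini-Hochberg adjustment over all genes tested, threshold 0.05. Standard errors come from the F statistic. CPM are TMM-scaled; log2 CPM used a prior count of 2. The script was tested on simulated data. No 2 libraries of a group were alike within counting noise (chi-square over its degrees of freedom, 7.08 to 111). Totals were 6805106 to 8370820 counts; floors of 3 counts cover counting error only. DESeq2 1.42.0, limma-voom (limma 3.58.1), other scalings and filters, a replicate block and each library left out were alternatives. The 10 genes and the pathway and marker lists were chosen with earlier results of these data known. Named by rule were the 10 genes, the 3 genes of each list with the smallest p and any called, and the 5 genes most like Cd69 and the 5 most like Rgs1, of which 2 are not reported here.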

Additional observations from a re-analysis of the deposited data

Results flagged for a closer look

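In 88 groups of 5 libraries checked for a single value far from the rest (the 10 genes, the named pathway genes and the marker sums), 16 held one by Dixon's ratio, 14 of them in EGF replicate 5; chance gives about 1 in 20 groups. Among the 10 genes these were Rgs10, at 48.6 CPM in EGF replicate 5 against 11.7 to 17.7 CPM in the other EGF libraries, and S1pr4, at 0 CPM there against 10.4 to 12.9 CPM. The same library was highest of the EGF group for Sphk1 (25.4 CPM), Cx3cr1 (35.3 CPM), Ccrl2 (13.4 CPM), Klf10 (109 CPM), Bhlhe40 (50.1 CPM), Itga4 (529.9 CPM) and Clec12a (57.7 CPM). It was lowest for Spns1 (4.34 CPM), Gnai3 (84.0 CPM, against 124 to 137 CPM in the other EGF libraries) and Socs3 (3.502 CPM). It also had the highest sum of stem and progenitor markers (4125 CPM) and of neutrophil markers (551 CPM). The stem and progenitor markers went both ways there. Myb had 11118 counts, against 6580 to 7986 in the other EGF libraries, and Slamf1 and Hoxa9 were also above them. Tal1 had 179 counts, against 567 to 843, Cd34 had 1813, against 2393 to 3282, and Ly6a and Procr were also below them. Apart from that library, Axin1 was low in saline replicate 4 (86.0 CPM) and Gng5 was high in saline replicate 2 (32.4 CPM).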

How the results depend on the processing

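With TMM, RLE and upper quartile scaling, limma-voom, no filter on low counts, and a filter of 1 CPM in 5 libraries, Cd69 was the 1 gene called. With library size scaling, and with EGF replicates 3 and 4 both left out (chosen after seeing the data), 0 genes were called higher, and so 0 of the 10. DESeq2 called 36 genes higher and 20 lower, among them Cd69 and no other of the 10, where S1pr2 and S1pr4 had no adjusted p. With any 1 library left out, 0 to 4 genes were called higher, 0 to 4 lower, and 0 to 2 of the 10 higher; Cd69 was called in 3 of 10 such fits, those without EGF replicates 1 or 5 or saline replicate 2. None of the other pathway genes was called under any of these settings. The log2 fold change of Cd69 lay between 0.76 and 0.88 over all 19 alternatives. The log2 fold change of Rgs3 was -0.24 without EGF replicate 2 and 0.00031 without EGF replicate 5, and that of Cx3cr1 turned to -0.058 without EGF replicate 5. S1pr4 had -1.38 (SE 1.01) by limma-voom, and Rgs1 0.19 (SE 0.21) without EGF replicates 3 and 4; the cause was not tested.

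With the replicate number as a block, 0 genes were called, and so 0 of the 10. The numbers are not said to pair libraries. Deviations of same-numbered libraries correlated between -0.08 and 0.02. By these deviations, 0 of 5 EGF libraries were closest to the saline library of the same number. In the other direction, 1 of 5 saline libraries was closest to the EGF library of the same number. The S1P receptor genes had at most 173 counts in any library, so counting error is larger for them than for Cd69, which had at least 777.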
